A study of Mus musculus with 6 samples.

Results

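The genes described here encode the parts of respiratory complexes II to V that are made from nuclear DNA, together with cytochrome c. They were chosen by name: every array probe that is not a control and whose gene name is Sdha, Sdhb, Sdhc, Sdhd, Cyc1 or Cycs, or starts with Uqcr, with Cox and a digit, or with Atp5. The rule used no measured value. It found 58 genes with 98 probes, of 37074 gene names and 56605 probes on the array. Of the 58 genes, 55 belong to the complexes or to the assembly of complex IV, Atp5s and Atp5sl carry the name of complex V without being counted among its subunits here, and Atp5c1-ps is a pseudogene.

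Expression was measured in LSK cells (lineage-negative, Sca1+, cKit+), the bone marrow fraction that holds haematopoietic stem cells and multipotent progenitors. The cells came from C57BL/6 mice at P6–P8. Control mice were Atg5w/w;VaviCre+ and the others were Atg5f/f;VaviCre+, called Atg5f/f;Vav, with 3 samples per group and 1 array per sample. Mice of both groups carried the Cre transgene, which Vav regulatory sequences drive in blood-forming and endothelial cells, so the groups differed in the floxed Atg5 alleles. The labels do not give the number of mice behind a sample, and p-values then measure only the spread between these samples, which may be technical. Atg5 encodes a protein needed to form autophagosomes, and the comparison asked how gene expression in neonatal stem and progenitor cells differed when it was deleted.

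The respiratory chain passes electrons from succinate (complex II, succinate dehydrogenase) and from NADH through ubiquinone to complex III, then through cytochrome c to complex IV, which reduces oxygen. Complexes III and IV pump protons, and complex V, the ATP synthase, lets them flow back to make ATP. Complex II is built wholly from nuclear genes, whereas complexes III, IV and V also hold subunits encoded in mitochondrial DNA. Haematopoietic stem cells are known for relying less on oxidative phosphorylation than the progenitors they give rise to, and mitochondria are among the substrates of autophagy.

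Levels are given as log2 of a probe's fluorescence intensity relative to the 75th percentile of its array, so that a level of 0 is that percentile. Probes that stood well above background on 3 or more of the 6 arrays were tested (32074 probes), and a gene is represented by its tested probe with the highest mean level. The test was limma's moderated test, 2-sided, with Benjamini-Hochberg adjustment over all tested probes and a threshold of 0.05. All 6 arrays lay on 1 slide, with control arrays in row 1 and Atg5f/f;Vav arrays in row 2, so row and group cannot be told apart. The only Atg5 probe starts at base 2251 of the mRNA, in its 3′ part, while the floxed stretch is an early coding exon. It therefore does not check the deletion, and it read 1.10, 0.93 and 1.06 in control and 1.46, 1.51 and 1.74 in Atg5f/f;Vav cells.

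Markers of cell state moved with the groups, and their part in the results below was not tested. Fewer cells of a type and less RNA per cell cannot be told apart in these sorted bulk samples. All 7 proliferation genes rose in Atg5f/f;Vav cells, with a summed linear level of 78.7 to 102 on control arrays and 128 to 174 on Atg5f/f;Vav arrays. Of 7 stem cell genes, 5 fell and 0 rose, and their summed level was 40.2 to 42.4 in control and 12.2 to 25.5 in Atg5f/f;Vav cells. Of 8 erythroid genes, 5 rose (Klf1 by 2.95 on the log2 scale) and 2 fell (Hba-a1 by −2.26). Their summed level was 221 to 497 in control and 83.6 to 143 in Atg5f/f;Vav cells. Hba-a1 made up most of that sum on every array, at log2 levels of 7.72 to 8.90 in control and 6.00 to 6.42 in Atg5f/f;Vav cells. The sum therefore does not show the erythroid genes that rose. Of 8 neutrophil and myeloid genes, 3 rose and 4 fell, with a summed level of 172 to 287 in control and 240 to 295 in Atg5f/f;Vav cells. Of 5 tested stromal genes of 6, 3 fell, with a summed level of 9.64 to 39.6 in control and 5.37 to 8.54 in Atg5f/f;Vav cells, and control replicates 2 and 3 stood apart with Col1a1 at 3.23 and 2.95 against −4.14 in control replicate 1. Macrophage and T and NK cell genes gave 0 calls by limma among 3 tested of 4 in each list, B cell genes 1 higher of 4, and megakaryocyte genes 1 higher and 1 lower of 4. Cd3g and Col3a1 were among the listed markers that did not pass the filter on background. Of 5 genes listed for the sorting gate, all tested, 1 rose, 0 fell and 4 did not pass the test. Ly6a (Sca1) rose by 1.57 (SE 0.15, limma adjusted p = 0.00623) and Kit differed by −0.38 (SE 0.13, limma adjusted p = 0.0563). Flt3 read 4.31, 4.47 and 4.30 in control and 4.18, 3.44 and 2.85 in Atg5f/f;Vav cells (−0.87, SE 0.31, limma adjusted p = 0.0675).

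Nuclear-encoded respiratory genes were higher in Atg5f/f;Vav than in control LSK cells across all of the complexes. Of the 58 genes, 56 passed the filter on background, and 43 of these rose, 1 fell and 12 did not pass the test. The median log2 fold change over the 56 was 0.55, a fold change of 1.46. Cycs, the electron carrier cytochrome c, rose most, by 1.15 (2.22-fold), and Cox7b2, a testis isoform of a complex IV subunit, was the member that fell. Over all represented genes, 18.7% were called higher and 15.3% lower, with a median log2 fold change of −0.03. Over the 13767 of them that RefSeq lists as protein-coding, 22.5% were called higher and 12.7% lower, with a median of 0.05. In 50 of the 56 members every Atg5f/f;Vav array read above every control array, which was so for 29.6% of all represented genes and 35.2% of protein-coding genes. Cox7b2, Cox7a2l and Cox7a1 had the opposite separation, which 26.3% of all represented genes showed.

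Leaving out an array moved the number of calls, most so for control replicates 1 and 2. The scaling moved both the number of calls and the size of the difference. Without control replicate 3, limma called 41 members higher, and without Atg5f/f;Vav replicates 1, 2 or 3 it called 43, 29 and 36. Without control replicate 1 or without control replicate 2, limma called 0 members at the adjusted threshold, while the median was 0.54 and 0.49. At an unadjusted p under 0.05, 43 and 42 members were higher and 1 was lower in each of these fits. The share of all tested probes under that unadjusted threshold was not counted for them, so these member counts have no background to be compared with. That share may be large, since with all 6 arrays the methods' t-test called 7256 probes higher and 6285 lower of 32074 unadjusted. Quantile normalisation left 19 members higher and 2 lower with a median of 0.24, beside 4714 and 3705 of the 32074 tested probes. Scaling to the percentile over probes detected on all 6 arrays left 26 higher and 3 lower with a median of 0.34, beside 3369 and 10089 probes. Testing without the filter on background left 18 higher and 0 lower with a median of 0.54, beside 2324 and 2213 probes.

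**Figure D1:**
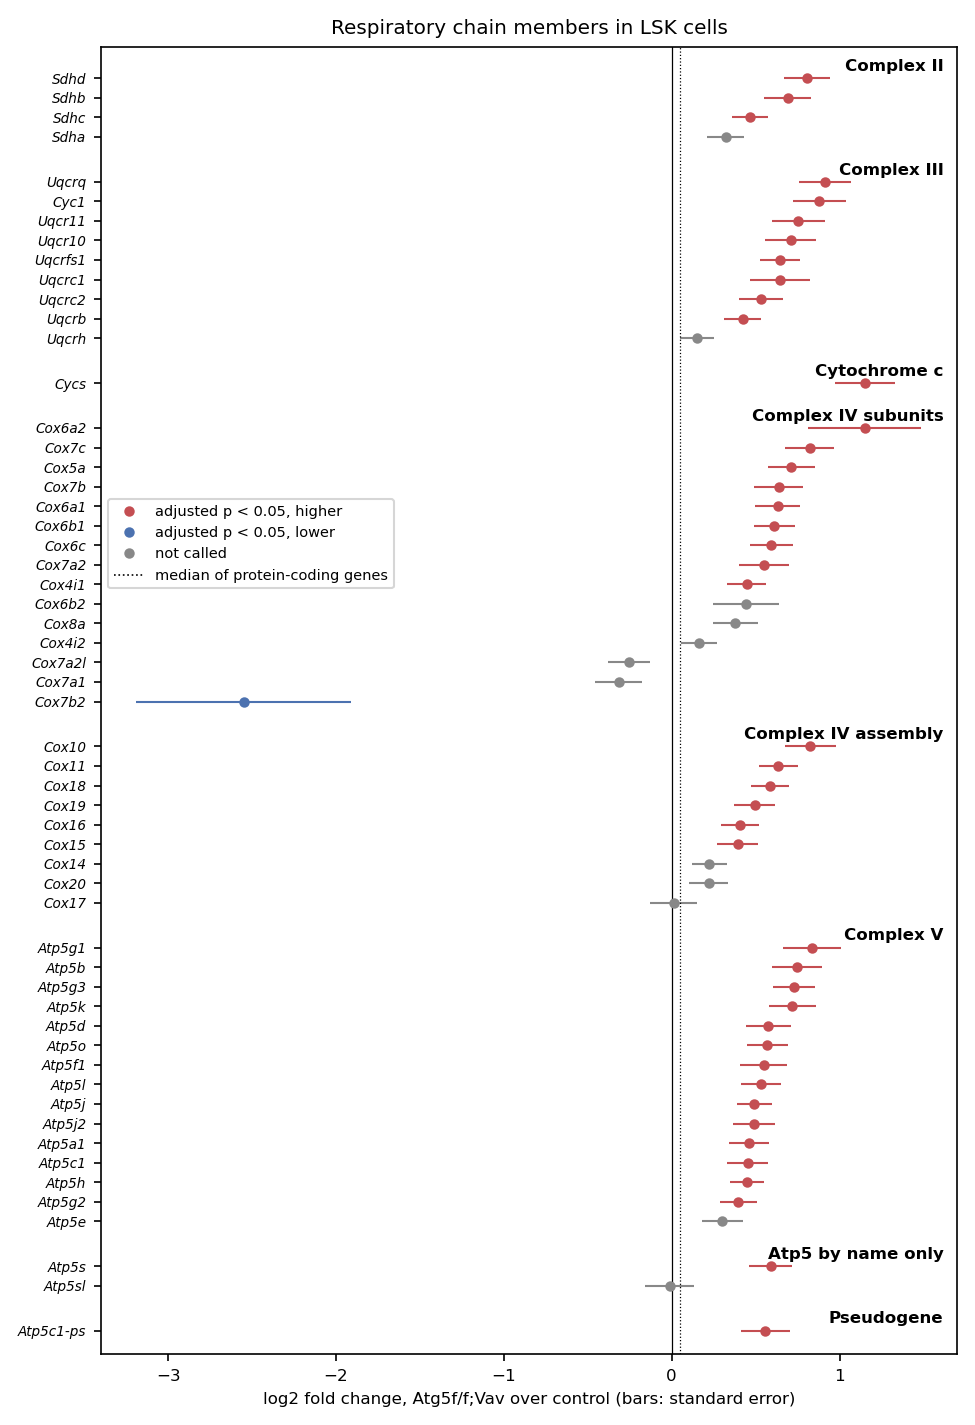
Log2 fold change of each of the 56 tested genes (horizontal axis, Atg5f/f;Vav over control, 3 arrays each), grouped by complex, with the standard error of the limma fit as bars. Red points are genes called higher, blue called lower and grey not called, and the dotted line is the median of protein-coding genes at 0.05. Most genes of every complex lie to the right of that line, and the tissue isoforms of complex IV spread from −2.55 to 1.15.

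Arrays within a group also differed, and in the same order for most members. Among the control arrays, replicate 3 read highest for 52 of the 56 members. Among the Atg5f/f;Vav arrays, replicate 3 read highest for 49 and replicate 1 lowest for 38. Relative to each gene's mean over the 6 arrays, the median of the 53 tested genes of the complexes was −0.30, −0.37 and −0.14 in control replicates 1, 2 and 3 and 0.16, 0.22 and 0.42 in those of Atg5f/f;Vav. The highest control array thus lay below the lowest Atg5f/f;Vav array, and the gap between them was wider than the spread inside either group. The summed proliferation markers followed part of this order, at 93.2, 78.7 and 102 in control replicates 1, 2 and 3. In Atg5f/f;Vav replicates 1, 2 and 3 they were at 141, 128 and 174. Summed stem cell markers were 42.0, 42.4 and 40.2 in control and 25.5, 23.5 and 12.2 in Atg5f/f;Vav cells. Of the erythroid genes, Gata1 read 0.87, 0.38 and 0.95 in control and 2.90, 3.73 and 4.56 in Atg5f/f;Vav cells. Hba-a1 read 8.90, 8.84 and 7.72 in control and 6.00, 6.42 and 6.28 in Atg5f/f;Vav cells. The part of these markers in the order of the members was not tested.

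**Figure D2:**
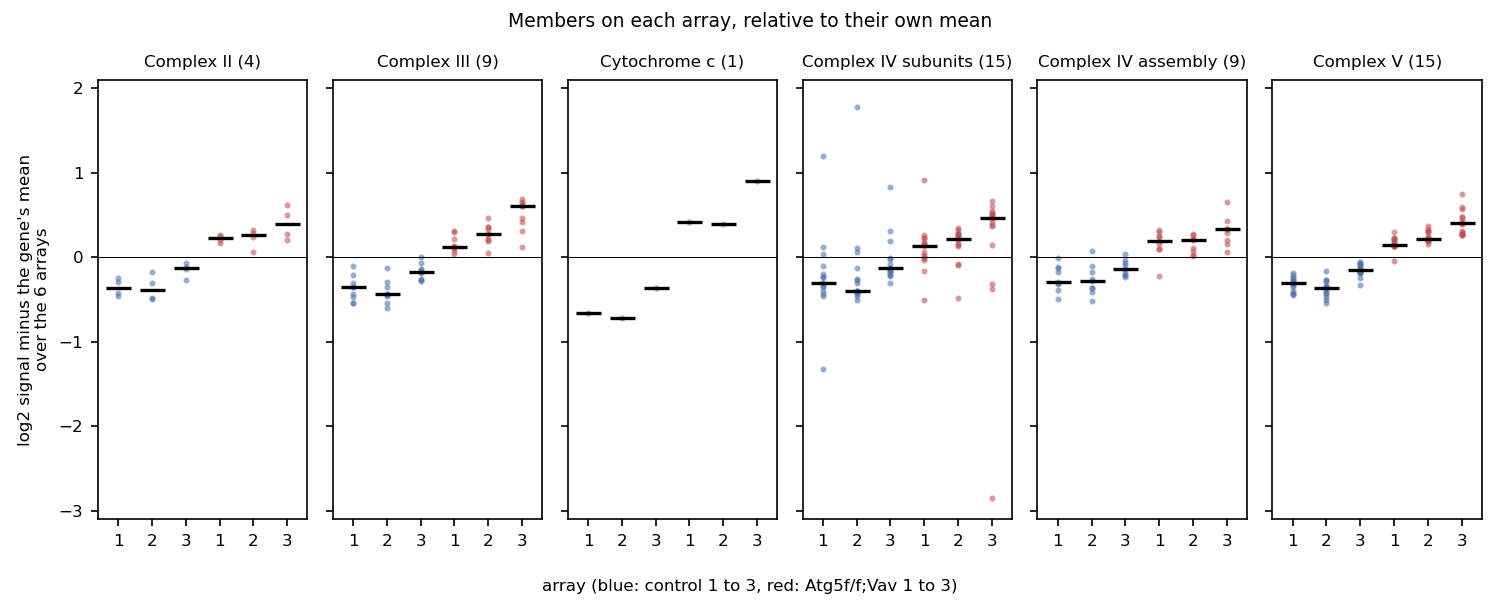
Level of the 53 tested genes of the complexes on each array minus that gene's mean over the 6 arrays (vertical axis, log2), by complex, with the number of genes in brackets. Small points are genes (blue control, red Atg5f/f;Vav) and black bars are medians. In each panel the control medians lie below 0 and the Atg5f/f;Vav medians above it, and replicate 3 is the highest of its group.

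All 4 subunits of complex II, the enzyme that oxidises succinate, read higher on every Atg5f/f;Vav array than on any control array, and 3 of them passed the test (median log2 fold change 0.58). Sdhd, a membrane anchor, read 3.78, 3.74 and 3.97 in control and 4.50, 4.57 and 4.85 in Atg5f/f;Vav cells. That is a rise of 0.81 (SE 0.14, limma adjusted p = 0.0153). Sdhb, the iron-sulphur subunit, rose by 0.69 (SE 0.14, limma adjusted p = 0.0174), from 4.72, 4.66 and 5.01 to 5.39, 5.43 and 5.65. The other anchor, Sdhc, rose by 0.47. Sdha, the flavoprotein that holds the succinate site, read 3.58, 3.65 and 3.75 in control and 4.03, 3.89 and 4.03 in Atg5f/f;Vav cells. Its groups did not overlap, but the difference of 0.32 (SE 0.11) did not pass the test (limma adjusted p = 0.0579), and under quantile normalisation it was −0.00091.

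Complex III, which passes electrons from ubiquinol to cytochrome c, had 8 of 9 members higher and a median log2 fold change of 0.64. Cyc1, its haem-carrying cytochrome c1, read 4.28, 4.22 and 4.63 in control and 5.12, 5.18 and 5.47 in Atg5f/f;Vav cells, a rise of 0.88 (SE 0.16, limma adjusted p = 0.0161). Uqcrfs1, the Rieske iron-sulphur protein, rose by 0.64, and the core proteins Uqcrc1 and Uqcrc2 rose by 0.64 and 0.53. The largest difference was in a small subunit, Uqcrq, at 5.40, 5.40 and 5.66 in control and 6.16, 6.41 and 6.63 in Atg5f/f;Vav cells (0.91, SE 0.16, limma adjusted p = 0.0153). Of the other small subunits, Uqcr11 rose by 0.75, Uqcr10 by 0.71 and Uqcrb by 0.42. The catalytic and core subunits thus lay within the range of the small ones.

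Uqcrh, the hinge protein between cytochrome c1 and cytochrome c, was the member of complex III that did not pass the test. It read 6.38, 6.35 and 6.48 in control and 6.52, 6.53 and 6.60 in Atg5f/f;Vav cells, a difference of 0.15 (SE 0.10, limma adjusted p = 0.280). Its sign turned under quantile normalisation (−0.12) and with the percentile taken over probes detected on all arrays (−0.06).

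Cytochrome c, the mobile protein that carries electrons from complex III to complex IV, is made in somatic cells from Cycs. Cycs read 3.86, 3.81 and 4.17 in control and 4.95, 4.92 and 5.43 in Atg5f/f;Vav cells. The rise of 1.15 (SE 0.18, limma adjusted p = 0.0145) was the largest of all members, and the lowest Atg5f/f;Vav array was well above the highest control array. Cyct, the testis form of cytochrome c, did not pass the filter on background. Hccs, the lyase that attaches haem to cytochrome c, differed by −0.19 (SE 0.15, limma adjusted p = 0.345).

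Of 17 members named as subunits of complex IV, cytochrome c oxidase, 15 were tested, 9 rose, 1 fell and 5 did not pass the test. The 10 subunits other than the tissue isoforms had 8 higher and a median log2 fold change of 0.60. Cox7c read 3.39, 3.32 and 3.52 in control and 4.06, 4.15 and 4.49 in Atg5f/f;Vav cells (0.82, SE 0.14, limma adjusted p = 0.0156). Cox5a read 5.47, 5.46 and 5.77 in control and 6.19, 6.20 and 6.45 in Atg5f/f;Vav cells (0.71, SE 0.14, limma adjusted p = 0.0168). On every Atg5f/f;Vav array these subunits read above all control arrays. Cox7b rose by 0.64, Cox6a1 by 0.63, Cox6b1 by 0.61, Cox6c by 0.59, Cox7a2 by 0.55 and Cox4i1 by 0.45. Cox8a did not pass the test, at 6.77, 6.73 and 6.92 in control and 7.03, 7.15 and 7.39 in Atg5f/f;Vav cells (0.38, SE 0.13, limma adjusted p = 0.0624).

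Cox7a2l, a relative of Cox7a2 known for joining complexes III and IV into supercomplexes, differed from the other subunits in sign. It read 6.16, 6.10 and 6.24 in control and 6.04, 5.97 and 5.73 in Atg5f/f;Vav cells. All Atg5f/f;Vav arrays lay below all control arrays, but the difference of −0.25 (SE 0.12) did not pass the test (limma adjusted p = 0.142). It was past the threshold under quantile normalisation (−0.57) and with the percentile taken over probes detected on all arrays (−0.46).

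Complex IV has isoforms that are used in particular tissues, and these were compared with their general counterparts. The probes behind the comparison are printed so that their sequences can be read: the 60-base probes of a pair shared at most 23 bases in the ungapped overlaps compared. Probes were compared with each other and not with the mRNA of the paralogue. Whether a probe also reads its paralogue was therefore not tested. They are written 5′ to 3′ with their positions in mm9 as the array files give them.
Cox4i1 (general), chr8:123197924-123197983, plus strand: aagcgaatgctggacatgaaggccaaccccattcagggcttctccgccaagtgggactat
Cox4i2 (lung isoform), chr2:152590612-152590671, plus strand: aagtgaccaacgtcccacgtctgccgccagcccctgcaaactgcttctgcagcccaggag
Cox6a1 (general), chr5:115795726-115795785, minus strand: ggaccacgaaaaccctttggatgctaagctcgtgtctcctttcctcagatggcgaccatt
Cox6a2 (heart and muscle isoform), chr7:135349160-135349219, minus strand: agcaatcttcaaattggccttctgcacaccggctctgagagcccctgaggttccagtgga
Cox7a2 (general), chr9:79603048-79603072, minus strand: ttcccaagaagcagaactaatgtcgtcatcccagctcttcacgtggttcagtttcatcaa
Cox7a1 (heart and muscle isoform), chr7:30970337-30970948, plus strand: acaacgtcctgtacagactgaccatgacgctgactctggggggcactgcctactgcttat
Cox7a2l, chr17:83901272-83901331, minus strand: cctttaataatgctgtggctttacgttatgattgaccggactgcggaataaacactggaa
The Cox7a1 probe crosses an exon junction, so that its positions span an intron, and the positions given for Cox7a2 cover only part of its probe.

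Of 7 tissue isoforms, 5 were tested, 1 rose and 1 fell. Cox6a2 read −1.40, −0.47 and −0.09 in control and 0.84, 0.27 and 0.39 in Atg5f/f;Vav cells, a rise of 1.15 (SE 0.34, limma adjusted p = 0.0397). Its control arrays spread over more than 1 log2 unit. The call was lost without any one array other than control replicate 3, and without control replicate 1 the difference was 0.78. Cox7b2 read −1.89, −1.31 and −2.26 in control and −3.59, −3.57 and −5.94 in Atg5f/f;Vav cells, a fall of −2.55 (SE 0.64, limma adjusted p = 0.0263). It was well above background on 2 of the 3 Atg5f/f;Vav arrays, and without Atg5f/f;Vav replicate 3 the difference was −1.76.

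The other tested isoforms did not pass the test. Cox7a1 read −1.09, −1.03 and −0.82 in control and −1.15, −1.23 and −1.51 in Atg5f/f;Vav cells (−0.32, SE 0.14, limma adjusted p = 0.120), without overlap between the groups. Cox4i2 read −0.69, −0.71 and −0.60 in control and −0.62, −0.45 and −0.44 in Atg5f/f;Vav cells (0.16, SE 0.11, limma adjusted p = 0.263), and its groups overlapped. Cox6b2, a testis isoform, read 2.20, 2.13 and 2.19 in control and 2.23, 2.61 and 3.0 in Atg5f/f;Vav cells (0.44, SE 0.20, limma adjusted p = 0.116), with a spread among the Atg5f/f;Vav arrays as wide as the difference. Cox8b and Cox8c, the muscle and testis isoforms of Cox8a, were not well above background on any of the 6 arrays and were not tested.

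Whether the groups differed more in a general subunit than in its isoform was tested on the log2 difference of both genes within each array, for 9 pairs. With 3 arrays against 3, an exact permutation test, 2-sided, cannot give a p under 0.1, which is 0.15 after adjustment over the 9 pairs, so no pair could reach 0.05. The difference between groups was 0.86 larger for Cox7a2 than for Cox7a1, 0.80 larger for Cox7a2 than for Cox7a2l, 3.19 larger for Cox7b than for Cox7b2 and 0.28 larger for Cox4i1 than for Cox4i2 (exact permutation p = 0.1 for each). In these 4 pairs no Atg5f/f;Vav array overlapped a control array. Such separation was common in single genes, at 29.6% of all represented genes higher and 26.3% lower. Its share over other gene pairs was not counted. The value for Cox7b against Cox7b2 rested in part on Atg5f/f;Vav replicate 3, where Cox7b2 was lowest, and was 2.28 without that array and 1.89 with normexp background correction. For Cox4i1 against Cox4i2 the sign turned under quantile normalisation (−0.04). The difference was 0.52 smaller for Cox6a1 than for Cox6a2, a contrast of −0.52 (exact permutation p = 0.5), and 0.17 larger for Cox6b1 than for Cox6b2 (exact permutation p = 0.4), and in both pairs the arrays of the groups overlapped.

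**Figure D3:**
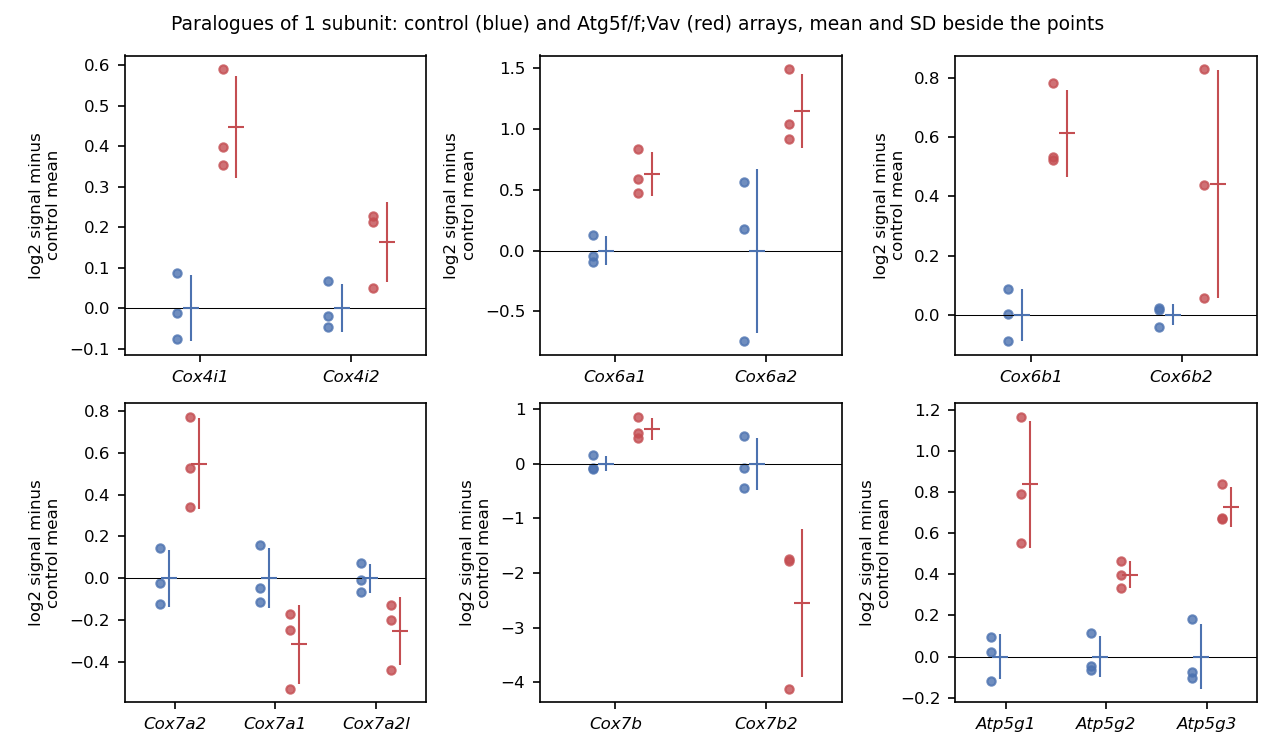
Level of paralogous subunits on each array minus the gene's control mean (vertical axis, log2), for 5 families of complex IV and the c-ring genes of complex V, with control arrays in blue, Atg5f/f;Vav arrays in red and mean and SD (n = 3) beside the points. Scales differ between panels. Cox7a1, Cox7a2l and Cox7b2 lie below their control arrays, while their counterparts Cox7a2 and Cox7b lie above theirs.

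Of 9 factors that assemble complex IV, 6 rose and 3 did not pass the test, with a median log2 fold change of 0.41. Cox10, which makes haem O from haem B, read 0.36, 0.33 and 0.63 in control and 1.16, 1.13 and 1.51 in Atg5f/f;Vav cells (0.83, SE 0.15, limma adjusted p = 0.0164). Cox11, which delivers copper to Cox1, read 0.15, 0.17 and 0.32 in control and 0.79, 0.80 and 0.97 in Atg5f/f;Vav cells (0.64, SE 0.11, limma adjusted p = 0.0159). Cox18, which inserts Cox2 into the membrane, rose by 0.58, Cox19 by 0.49, Cox16 by 0.41 and Cox15, which makes haem A from haem O, by 0.39. Cox14 (0.22, SE 0.10, limma adjusted p = 0.125) and Cox20 (0.22, SE 0.12, limma adjusted p = 0.176) did not pass the test, and both turned sign under quantile normalisation (−0.13 and −0.04).

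For Cox17, the copper chaperone that supplies the enzyme's copper centres, the reading depended on the probe. The probe with the highest level, which is annotated to an expressed sequence tag, read 7.58, 7.65 and 7.50 in control and 7.36, 7.61 and 7.79 in Atg5f/f;Vav cells (0.01, SE 0.14, limma adjusted p = 0.951). The probes annotated to the RefSeq mRNA read 4.08, 4.04 and 4.26 against 4.76, 5.0 and 5.44 (0.94, SE 0.19, limma adjusted p = 0.0171) and 1.93, 1.79 and 1.95 against 2.47, 2.68 and 3.18 (0.88, SE 0.19, limma adjusted p = 0.0191). Both RefSeq probes thus separated the groups, and the tag probe did not. The tag probe lies downstream of both on mm9 and is 78.3% G and C, as its sequence shows.
Cox17, expressed sequence tag, chr16:38353313-38353372, plus strand: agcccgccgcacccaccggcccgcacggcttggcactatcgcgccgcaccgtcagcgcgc
Cox17, RefSeq mRNA, across a junction, chr16:38349405-38352760, plus strand: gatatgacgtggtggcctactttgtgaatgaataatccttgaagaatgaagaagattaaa
Cox17, RefSeq mRNA, chr16:38347185-38347244, plus strand: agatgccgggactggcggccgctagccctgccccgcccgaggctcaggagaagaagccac

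Complex V had 14 of 15 members higher, with a median log2 fold change of 0.53, and every member read higher on all Atg5f/f;Vav arrays than on any control array. In the F1 head, which holds the catalytic sites, Atp5b (beta) read 6.31, 6.24 and 6.55 in control and 6.96, 7.05 and 7.33 in Atg5f/f;Vav cells, a rise of 0.75 (SE 0.15, limma adjusted p = 0.0169). Atp5d (delta) rose by 0.58, Atp5a1 (alpha) by 0.46 and Atp5c1 (gamma) by 0.45. Atp5e (epsilon) read 6.02, 6.05 and 6.11 in control and 6.18, 6.43 and 6.49 in Atg5f/f;Vav cells, and the difference of 0.30 (SE 0.12) did not pass the test (limma adjusted p = 0.0909). The 4 stator subunits, which hold the head still, rose by similar amounts: Atp5o by 0.57, Atp5f1 by 0.55, Atp5j by 0.49 and Atp5h by 0.45. Of the accessory subunits of the membrane part, Atp5k rose by 0.72, Atp5l by 0.53 and Atp5j2 by 0.49.

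The rotating c ring of complex V is made of a protein that Atp5g1, Atp5g2 and Atp5g3 encode with the same mature sequence and different import signals. Compared with each other in the same way, their probes shared at most 23 of 60 bases, which likewise does not test whether 1 probe reads several of the genes.
Atp5g1, chr11:95934315-95934374, minus strand: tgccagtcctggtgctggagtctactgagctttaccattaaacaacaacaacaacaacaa
Atp5g2, chr15:102493359-102493418, minus strand: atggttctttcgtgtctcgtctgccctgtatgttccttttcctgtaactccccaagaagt
Atp5g3, chr2:73746519-73746578, minus strand: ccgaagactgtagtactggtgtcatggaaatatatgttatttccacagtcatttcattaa
Atp5g1 read 5.54, 5.40 and 5.61 in control and 6.07, 6.30 and 6.68 in Atg5f/f;Vav cells (0.84, SE 0.17, limma adjusted p = 0.0180). Atp5g3 read 5.65, 5.62 and 5.90 in control and 6.39, 6.40 and 6.56 in Atg5f/f;Vav cells (0.73, SE 0.13, limma adjusted p = 0.0153). Atp5g2 read 6.72, 6.70 and 6.89 in control and 7.10, 7.17 and 7.23 in Atg5f/f;Vav cells (0.40, SE 0.11, limma adjusted p = 0.0327). All c-ring genes rose, and Atp5g2 had the smallest difference. Within arrays, the difference between groups was 0.44 larger for Atp5g1 than for Atp5g2 and, as a contrast, −0.33 for Atp5g2 against Atp5g3, both without overlap (exact permutation p = 0.1, the smallest possible), while Atp5g1 and Atp5g3 differed by 0.11 (exact permutation p = 0.6). As for the isoform pairs, the share of other gene pairs without overlap was not counted. When a gene's probes were averaged in place of taking the brightest, the contrast of Atp5g2 with Atp5g3 turned sign (0.07).

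Of the members outside the complexes, Atp5s, known as coupling factor B, rose by 0.59 (SE 0.13, limma adjusted p = 0.0198). Atp5sl read 2.45, 2.45 and 2.71 in control and 2.73, 2.51 and 2.34 in Atg5f/f;Vav cells, with overlapping groups (−0.01, SE 0.15, limma adjusted p = 0.960). The probe of the pseudogene Atp5c1-ps rose by 0.56 (SE 0.14, limma adjusted p = 0.0285), and as the pseudogene is a copy of Atp5c1, their signals may not be separate.

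Several members were read by more than 1 probe, and these did not always agree. Of 26 genes with several tested probes, 16 had log2 fold changes within 0.5 of each other, 9 had probes of opposite sign and 3 (Atp5g1, Cox16 and Atp5j) had probes that differed by over 1. The 77 tested probes annotated to a RefSeq mRNA gave 60 higher and 2 lower, with a median of 0.57, where 17.3% of all tested probes were called higher and 17.1% lower. On 69 of the 77 every Atg5f/f;Vav array read above every control array, as did 27.1% of all tested probes. The 15 annotated to other transcripts (Ensembl or cDNA entries, an expressed sequence tag and the pseudogene) gave 5 higher and 1 lower, with a median of −0.06. With RefSeq probes alone, the counts over genes were 43 higher and 1 lower.

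The members with probes of opposite sign were Sdha, Uqcrb, Cox16, Atp5f1, Atp5g1, Atp5g3, Atp5j, Atp5j2 and Atp5sl. For Sdha, the other RefSeq probe rose by 0.51 (SE 0.13, limma adjusted p = 0.0272), from 0.54, 0.49 and 0.67 to 1.18, 0.87 and 1.18. A cDNA probe of Sdha fell, at −1.84, −1.65 and −2.03 in control and −2.21, −2.24 and −2.31 in Atg5f/f;Vav cells (−0.42, SE 0.13, limma adjusted p = 0.0453). RefSeq probes of Sdha thus both read higher in Atg5f/f;Vav cells, and the probes that read lower are annotated to other transcripts. For Cox16, 4 probes gave 0.41, 0.23, 0.06 and −0.66, and the lowest, annotated to the RefSeq mRNA from base 1927, was called lower (SE 0.20, limma adjusted p = 0.0452). For Atp5g1, the RefSeq probes gave 0.84 and 0.95 and an Ensembl transcript probe that starts at base 4504 gave −0.17. For Atp5j, an Ensembl transcript probe gave −0.57 (SE 0.23, limma adjusted p = 0.0907) beside 0.49 for the RefSeq probe. The lower readings of Atp5j2 (−0.34), Uqcrb (−0.22), Atp5f1 (−0.21) and Atp5g3 (−0.06) also came from Ensembl transcript probes. In that order, these had mean control levels of −0.92, −3.81, −2.66 and 0.08, against 4.98, 4.72, 4.66 and 5.72 for the probes that represent the genes. Atp5a1 had probes of the same sign that differed by less than 1, at 0.46 and 1.01.

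**Figure D4:**
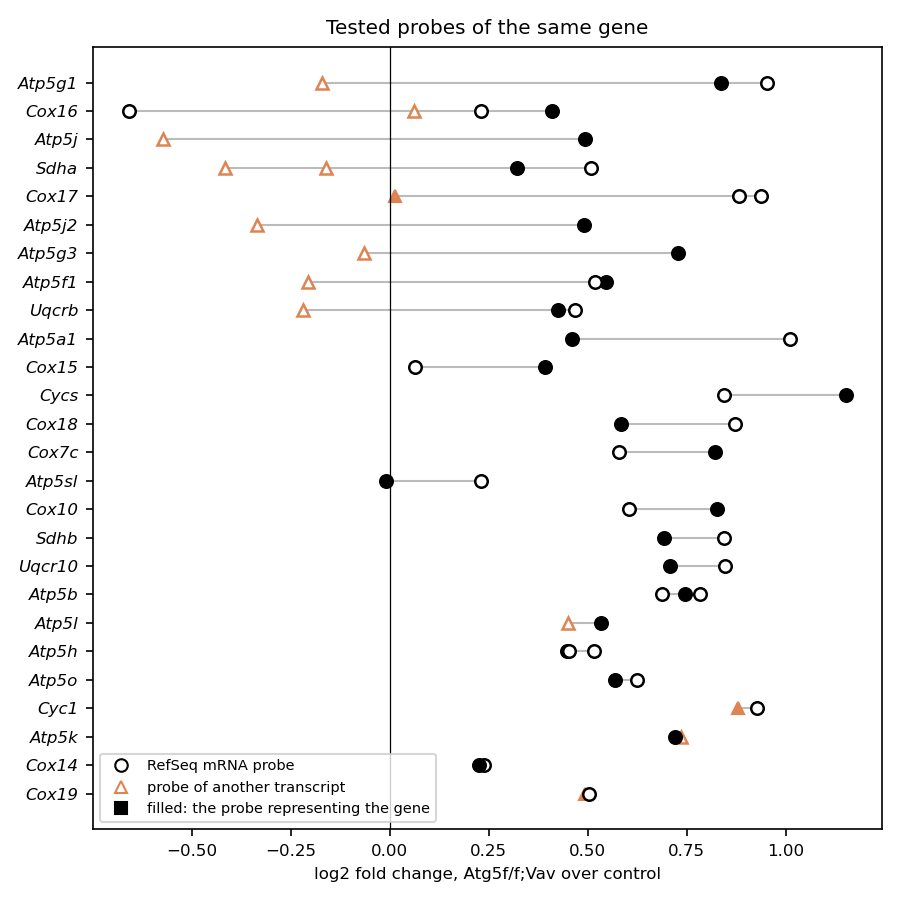
Log2 fold change (horizontal axis, Atg5f/f;Vav over control) of every tested probe of the 26 genes that have several, with circles for probes annotated to a RefSeq mRNA, triangles for other transcripts and filled symbols for the probe that represents the gene. Genes are ordered by the distance between their probes, from over 1 (top) to near 0, and most symbols left of 0 are triangles.

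Further genes of the same complexes, whose names the rule does not cover, were tested in the same fit. Of 38 listed, 37 were tested, 25 rose, 1 fell and 11 did not pass the test, with a median log2 fold change of 0.51, against 18.7% higher and 15.3% lower over all represented genes and 22.5% and 12.7% over protein-coding genes. Coa7, a complex IV assembly factor, read −1.43, −1.65 and −1.45 in control and −0.60, −0.63 and −0.59 in Atg5f/f;Vav cells (0.91, SE 0.11, limma adjusted p = 0.0101). Atpif1, the inhibitor of ATP hydrolysis by complex V, read 6.29, 6.32 and 6.38 in control and 6.87, 7.22 and 7.60 in Atg5f/f;Vav cells (0.90, SE 0.19, limma adjusted p = 0.0182). Coa5, also an assembly factor of complex IV, rose by 0.87 (SE 0.21, limma adjusted p = 0.0239). Tmem177, which takes part in the assembly of Cox2, was the gene that fell, from −0.38, −0.21 and −0.42 to −0.72, −0.74 and −1.03 (−0.50, SE 0.13, limma adjusted p = 0.0301). By complex, 3 of 4 assembly factors of complex II, 3 of 6 of complex III, 13 of 19 further genes of complex IV and 6 of 7 of complex V rose. As for the members, without control replicate 1 or 2 the count higher was 1 and 0 by limma.

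The partner subunits encoded in mitochondrial DNA were read by 4 probes of 6 genes looked for, and 0 were called by limma at the adjusted threshold, while 3 had an unadjusted p under 0.05. Cytochrome b (CYTB) read 6.85, 6.69 and 6.88 in control and 7.09, 7.10 and 7.35 in Atg5f/f;Vav cells (0.37, SE 0.12, limma adjusted p = 0.0552). COX1 differed by 0.42 (SE 0.15, limma adjusted p = 0.0736) and ATP8 by 0.45 (SE 0.16, limma adjusted p = 0.0642). In these genes every Atg5f/f;Vav array read above every control array. COX2 read 8.41, 8.39 and 8.29 in control and 8.16, 8.43 and 8.53 in Atg5f/f;Vav cells, with overlapping groups (0.01, SE 0.13, limma adjusted p = 0.955). The calls depended on the setting, with 3 called under normexp background correction and with an intensity trend.

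Promoters of respiratory genes are known for binding sites of NRF1, of ETS factors such as GABP, and of YY1, so the members' promoters were searched for these motifs. Promoters from RefSeq (GRCm38.p6), each from 250 bases before the start of the gene to 50 after it, were found for 42 of the 55 genes of the complexes, and letters were searched on both strands. The NRF1 motif, GCGCA followed by any base and GCGC, was present for 10 of 42 genes (23.8%), against 5.19% of all genes in the table and 7.17% of protein-coding genes. The ETS motif CCGGAAG was present for 17 genes (40.5%), against 9.93% of all and 12.95% of protein-coding genes. The YY1 motif AAGATGGCG was present for 3 genes (7.14%), against 1.64% and 2.14%. The ETS motif ends and the YY1 motif starts with AAG, so that matches to both can overlap. A match is a run of letters and not a shown binding site, and a site that departs from these letters was not counted.

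The 120 bases upstream of the start are printed for the complex II genes with the largest and the smallest change, for 2 complex V genes with an NRF1 match and for Cycs, so that matches can be read beside the changes. Capitals mark NRF1 and ETS matches, the latter also as their reverse complement CTTCCGG.
Sdhd, chr9:50603850-50603969, minus strand: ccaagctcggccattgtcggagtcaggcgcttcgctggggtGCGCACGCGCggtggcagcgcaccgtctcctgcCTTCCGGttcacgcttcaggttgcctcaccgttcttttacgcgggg
Sdha, chr13:74350241-74350360, minus strand: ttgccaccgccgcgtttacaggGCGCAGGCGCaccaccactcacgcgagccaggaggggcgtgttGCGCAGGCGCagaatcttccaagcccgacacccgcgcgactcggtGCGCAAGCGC
Atp5k, chr5:108434400-108434519, minus strand: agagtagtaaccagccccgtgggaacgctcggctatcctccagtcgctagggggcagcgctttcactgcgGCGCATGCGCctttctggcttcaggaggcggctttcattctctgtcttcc
Atp5g2, chr15:102671048-102671167, minus strand: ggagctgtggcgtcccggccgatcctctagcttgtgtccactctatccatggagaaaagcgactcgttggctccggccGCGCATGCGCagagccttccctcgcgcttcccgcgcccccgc
Cycs, chr6:50566570-50566689, minus strand: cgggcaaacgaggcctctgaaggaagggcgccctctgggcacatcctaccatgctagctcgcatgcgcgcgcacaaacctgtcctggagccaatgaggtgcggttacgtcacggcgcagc
Sdhd held an NRF1 match that starts 79 bases before the gene and an ETS match 46 bases before it, and rose by 0.81. Sdha held 3 NRF1 matches, 98, 55 and 10 bases before the start, and its difference of 0.32 did not pass the test. Atp5k and Atp5g2, with 1 NRF1 match each at 50 and 42 bases, rose by 0.72 and 0.40. Cycs, with the largest rise, held no exact match to the searched letters in its window. Its printed bases include tcgcatgcgc, which differs from the NRF1 letters in 1 base and was not counted.

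Members with and without these letters had overlapping ranges of change. The 24 tested genes with any of the motifs had 18 higher and a median log2 fold change of 0.49, from 0.15 to 0.83. The 17 without had 13 higher and a median of 0.64, from −2.55 to 1.15. The 10 genes with an NRF1 match had 9 higher and a median of 0.60, from 0.32 to 0.81, and the 31 without had 22 higher and a median of 0.55. For the ETS motif the order was the other way, with 12 of 17 higher and a median of 0.49 with a match and 19 of 24 higher and a median of 0.57 without. Neither difference was tested.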

How the data were processed

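Total RNA of sorted LSK cells was hybridised to 1-colour Agilent arrays with 60-base probes (6 arrays, 3 per group, named by the mm9 annotation of the files). Scanner intensities, deposited as background-subtracted and detrended values, came from Agilent Feature Extraction 12.0.3.1 per the submitters' processing notes. The series table holds a normalised signal of the authors, which within an array is intensity times a constant (the ratio varied by at most 0.000267% within an array). Whether that constant is the 75th percentile used here was not checked. The authors' signal served as an alternative and gave 5953 probes higher and 5031 lower.

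From the intensities, log2 values minus each array's 75th percentile over 59305 non-control spots were taken. Spots flagged as outliers, 64 to 81 on an array, were dropped, no spot was saturated, and spots of a probe were averaged. Probes well above background made up 58.2, 57.6 and 58.1% on control arrays 1, 2 and 3. On Atg5f/f;Vav arrays 1, 2 and 3 they made up 54.8, 53.9 and 51.6%. This share thus ran with group, and its part in the results was not tested. Arrays give no read depth, and their number limits the precision. Tests used limma 3.58.1 in R 4.3.3, tested on simulated data, and exact permutation tests over arrays. Groups follow the labels. The same replicate numbers occur in both groups, but deviations of same-numbered arrays correlated at −0.07, 0.19 and 0.11, so no pairing was assumed.

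Members, role groups, paralogue pairs, marker lists (sorting gate, stem cell, erythroid, myeloid, proliferation, stromal, B cell, megakaryocyte, macrophage, T and NK cell) and lists of further genes were chosen with earlier results of these data known. Named are the 3 largest and 2 lowest changes of each role group, isoforms, members lower or not called, and members with discordant probes. Alternatives were normexp, quantile normalisation, a percentile over detected probes, the deposited values, other filters, kept outliers, an intensity trend, the methods' t-test, a replicate block, each array left out, the mean over probes and, added after seeing the data, RefSeq-annotated probes only.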

Additional observations from a re-analysis of the deposited data

How the results depend on the processing

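The median over members stayed above 0 under every alternative run, from 0.24 to 0.63, and over all represented genes it was −0.03 (−0.24 with the percentile over probes detected on all 6 arrays, −0.02 under quantile normalisation). Members called higher and lower were 43 and 1. They were 44 to 46 and 0 or 1 with normexp, the deposited values, the filter on all 6 arrays (0 lower) and the intensity trend. Quantile normalisation gave 19 and 2 members, 13 further genes higher and 4714 and 3705 probes higher and lower. Medians were then 0.24 over members, 0.23 for complex V, 0.22 for complex IV, 0.30 for its assembly, 0.36 for complex III, 0.28 for complex II and 0.79 for cytochrome c. The percentile over detected probes gave 26 and 3 members, 15 further genes higher and 3369 and 10089 probes higher and lower. With the scaling used in the Results, 5540 and 5484 probes were called. The percentile over detected probes gave medians of 0.34 over members, 0.33 for complex V, 0.34 for complex IV, 0.20 for its assembly, 0.44 for complex III and 0.37 for complex II. Without the filter on background, where more probes share the adjustment, 18 and 0 members, 6 and 0 further genes and 2324 and 2213 probes were called. The methods' t-test called 47 and 1 members unadjusted, and 7256 and 6285 of the 32074 tested probes. After Benjamini-Hochberg it called 0 and 0 members, 0 and 0 further genes and 0 and 0 probes. Mitochondrially encoded subunits called were 3 with normexp, 3 with the intensity trend, and 1 with the deposited values, with the filter on all 6 arrays and with the unadjusted t-test. The median of complex IV assembly was 0.50 with the mean of probes and 0.50 with RefSeq probes.

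Leaving out 1 array at a time, members called ranged from 0 to 43 higher and 0 to 1 lower, further genes from 0 to 19 higher and 0 to 1 lower, and probes from 155 to 4962 higher and 96 to 5342 lower. The counts of 0 members came without control replicate 1 (188 and 142 probes) and without control replicate 2 (155 and 96 probes). The member median ranged from 0.47 to 0.63, Cox17 from −0.090 to 0.13, Atp5sl from −0.11 to 0.084 and the contrast of Atp5g1 with Atp5g3 from −0.00060 to 0.22. Further reversed signs were small. Under quantile normalisation they were Cox14 −0.13, Cox17 −0.11, Cox20 −0.042, Sdha −0.00091, Uqcrh −0.12 and Cox4i1 against Cox4i2 −0.039. With the percentile over detected probes they were Cox17 −0.19, Cox4i2 −0.043 and Uqcrh −0.058. With the deposited values Atp5sl was 0.011. With the mean of probes they were Atp5j −0.040, Atp5sl 0.11 and Atp5g2 against Atp5g3 0.065. The cause was not tested. With the replicate number as a block, 42 and 1 members and 5261 and 4912 probes were called. Deviations of Atg5f/f;Vav replicates 2 and 3 correlated best with the control of the same number (0.19 and 0.11). Replicate 1 did not (−0.07, against 0.10 with control replicate 3). With 3 arrays per group, these correlations cannot decide whether the numbers pair samples. A block for slide was not run, since there was only 1 slide.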
